A study of Mus musculus with 2 samples.

Results

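The small leucine-rich proteoglycans (SLRPs) are secreted matrix proteins, and 10 of their genes were followed here by symbol among the 32531 genes listed: Dcn, Bgn, Lum, Ogn, Fmod, Prelp, Omd, Kera, Aspn and Epyc. All 10 had a row in both libraries. The RNA came from cerebral cortex. The donors were adult mice carrying Gdnf-EGFP/Rpl10a (line ES2243), in which a ribosomal protein tagged with enhanced green fluorescent protein is made under regulatory sequences of Gdnf. Tagged polysomes were immunopurified from the homogenized tissue with antibodies against the tag (translating ribosome affinity purification, TRAP), and the bound RNA was sequenced. The 2 libraries, IP1 and IP2, were both such purified samples without any treatment and formed 1 group. The series describes the profiled cells as pericytes, the mural cells that wrap capillaries. The labels used here give no strain background, no number of animals and no word on pooling, so the spread between IP1 and IP2 may be technical.

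SLRPs share a core of leucine-rich repeats that binds collagen fibrils and helps to set fibril diameter and spacing. Most carry sulfated sugar chains, chondroitin or dermatan sulfate in class I and keratan sulfate in class II, and several also bind growth factors such as TGF-beta or act on cell surface receptors. In the brain they are best known from the meninges and from the adventitia of larger vessels, where decorin and lumican are common markers of fibroblasts, while biglycan is also made by mural cells.

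Gene counts totalled 65200231 reads for IP1 and 72732502 for IP2. Levels are CPM, a gene's count scaled to 1000000 gene counts per library, given per library or as mean ± SD over the 2 libraries. Intervals are exact 95% intervals for counting error only. Reads are not independent molecules, because the files mark no molecular identifiers. All 12 pericyte and pan-mural marker genes chosen for this report reached 10 CPM in both libraries, against 28.3% of all genes listed. Their summed levels were 6703 CPM in IP1 against 6598 CPM in IP2, of which Rgs5 alone gave 4841 and 4061 CPM. Rgs5 was lower in IP2, while 8 of the 12 were higher. Of 10 endothelial markers 1 reached 10 CPM in both, Emcn at 42.1 and 33.3 CPM, and the sums were 73.5 and 75.8 CPM. Cldn5, the lowest of the 10, was at 5 counts and 0. All 8 neuronal markers reached 10 CPM in both, with sums of 16738 and 14699 CPM, of which Snap25 alone gave 12770 and 10795 CPM. So did 12 of 14 perivascular and meningeal fibroblast markers, with sums of 3563 and 4676 CPM, of which Apod gave 1712 and 2446 CPM. The SLRP reads therefore cannot be credited to pericytes alone. In such mixed RNA, fewer cells of a type and less RNA per cell cannot be told apart.

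Of the 10 SLRP genes, 8 reached 1 CPM in both libraries, against 41.3% of all genes listed, and 7 reached 10 CPM in both, against 28.3%. Together the 10 genes gave 899 CPM in IP1 against 1208 CPM in IP2. Bgn, Prelp and Dcn took 82.7% of these reads in IP1 and 82.6% in IP2. The median over the 10 genes was 36.8 CPM in IP1 against 45.9 CPM in IP2, beside medians of 14.3 and 13.8 CPM over the 17306 genes with at least 10 counts in total. Ranked by reads, the genes stood in the same order in both libraries, namely Bgn, Prelp, Dcn, Fmod, Lum, Ogn, Aspn, Omd, Epyc and Kera. CPM is not divided by transcript length, so this is an order of reads and not of molecules. The ranges over the 2 libraries overlapped for Bgn and Prelp, Prelp and Dcn, Fmod and Lum, and Ogn and Aspn. Dcn and Fmod, Lum and Ogn, Aspn and Omd, and Omd and Epyc had separate ranges. The overlaps set a gene in IP1 beside another in IP2. Within each library the counting intervals of the first 3 pairs were separate, and those of Ogn and Aspn overlapped in IP2.

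**Figure D1:**
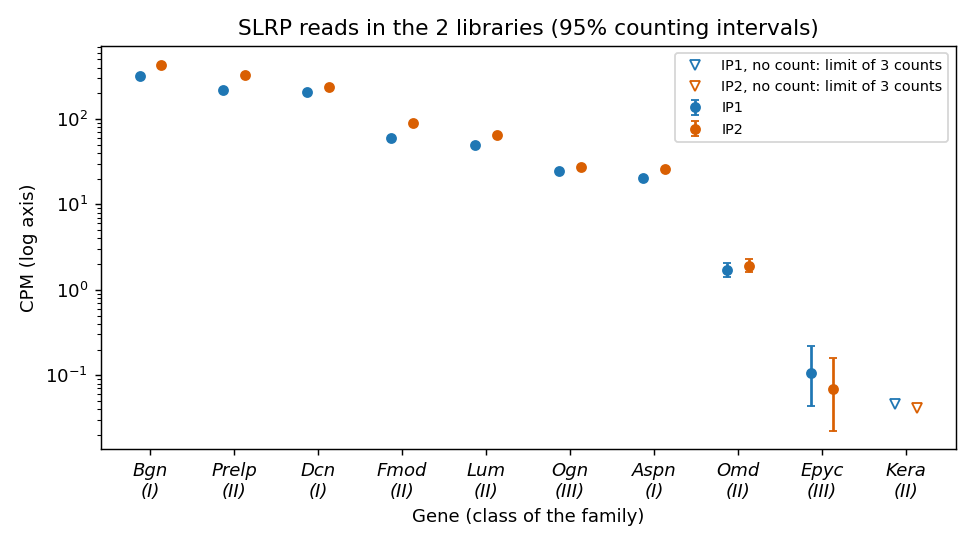
Level of each SLRP gene in CPM (log axis) in IP1 and IP2, with exact 95% counting intervals; the class of the family stands in brackets. The 7 genes from Bgn to Aspn lie above 10 CPM in both libraries, Omd lies near 2 CPM, Epyc near 0.1 CPM, and Kera had no count, so its open triangles mark the limit that 3 counts set.

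The promoters below are shown for the gene with the most reads (Bgn), for the chromosome 1 pair with the highest ratios between the libraries (Prelp and Fmod), and for chromosome 13 neighbours that differ in level (Omd and Ogn). Each is the stretch of 250 bases before the RefSeq start site, 5′ to 3′ on the gene's strand, in GRCm38.p6. Capitals mark matches to the motifs searched.
Bgn: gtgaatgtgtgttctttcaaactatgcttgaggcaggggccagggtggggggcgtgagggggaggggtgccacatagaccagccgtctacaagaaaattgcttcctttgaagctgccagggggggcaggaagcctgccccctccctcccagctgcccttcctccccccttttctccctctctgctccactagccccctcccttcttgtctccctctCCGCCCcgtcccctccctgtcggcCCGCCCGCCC
Prelp: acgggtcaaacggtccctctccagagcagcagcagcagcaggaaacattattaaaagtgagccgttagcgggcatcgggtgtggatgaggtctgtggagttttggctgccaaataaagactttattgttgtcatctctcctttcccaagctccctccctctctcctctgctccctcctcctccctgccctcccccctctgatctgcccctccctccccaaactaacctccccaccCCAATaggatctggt
Fmod: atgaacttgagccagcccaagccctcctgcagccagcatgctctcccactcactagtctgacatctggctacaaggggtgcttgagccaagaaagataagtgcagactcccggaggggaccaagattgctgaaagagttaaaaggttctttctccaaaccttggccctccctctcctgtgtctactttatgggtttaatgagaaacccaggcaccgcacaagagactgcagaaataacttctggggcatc
Omd: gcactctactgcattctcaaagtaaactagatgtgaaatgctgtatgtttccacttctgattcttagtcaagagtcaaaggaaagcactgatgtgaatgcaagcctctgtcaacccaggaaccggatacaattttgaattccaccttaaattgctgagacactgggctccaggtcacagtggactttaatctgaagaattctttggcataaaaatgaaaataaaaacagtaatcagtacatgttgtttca
Ogn: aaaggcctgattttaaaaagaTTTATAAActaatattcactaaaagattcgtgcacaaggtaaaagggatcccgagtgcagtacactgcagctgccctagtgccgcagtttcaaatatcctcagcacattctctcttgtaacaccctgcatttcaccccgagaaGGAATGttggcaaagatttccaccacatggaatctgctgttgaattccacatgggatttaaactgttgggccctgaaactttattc
These windows lie at chrX:73483351-73483600 on the plus strand for Bgn, chr1:133921402-133921651 on the minus strand for Prelp and chr1:134037004-134037253 on the plus strand for Fmod. The windows of Omd (chr13:49582212-49582461) and Ogn (chr13:49607765-49608014) are on the plus strand. The Prelp window lies within the RefSeq span of the gene, which starts further upstream. RefSeq promoter entries were matched for 8 of the 10 genes, without Dcn and Lum.

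In all, 5 short motifs were searched on both strands in these windows. The TATA box (TATAAA) is a core promoter element, the GC box (GGGCGG) binds SP factors, and CCAAT binds NF-Y. GGAATG is the core bound by TEAD factors, and CAGACA is a SMAD element of TGF-beta signalling. The Bgn window was 64.4% G and C, against a median of 52.4% over 32851 promoter windows, and held 3 GC boxes, of which 2 overlap, within its last 34 bases. GC boxes occurred in 32.7% of all windows and in 1 of the 8 genes. The Ogn window, at 42.0% G and C, held 1 TEAD core (12.6% of all windows) and overlapping TATA matches on both strands (12.4%) between 222 and 229 bases before the start. TEAD cores and TATA matches each occurred in 2 of the 8 genes. Genes are counted when any of their windows matched, while the percentages count windows. Epyc had 2 windows, and its TEAD core lay in 1 of them. Prelp held 1 CCAAT (33.8% of all windows, and 3 of the 8 genes), and the Fmod and Omd windows held none of the 5 motifs. No window of the 8 genes held CAGACA, which 17.1% of all windows did. These matches describe letters and not binding.

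Among the class I genes, Bgn encodes biglycan, which carries chondroitin or dermatan sulfate chains and lies on chromosome X (73483601 to 73495936, NCBI Gene 12111). Bgn was at 318 CPM in IP1 (interval 314 to 323) against 433 CPM in IP2 (428 to 438), from 20749 and 31512 counts. It took 35.4% of the SLRP reads in IP1 (35.03 to 35.81%) and 35.9% in IP2 (35.5 to 36.2%), so its share was nearly even while its level was higher in IP2. Dcn encodes decorin, which carries 1 such chain, binds collagen and holds back TGF-beta (chromosome 10, 97479500 to 97518163, NCBI Gene 13179). Dcn was at 206 CPM in IP1 (203 to 210) against 236 CPM in IP2 (233 to 240). Its share of the SLRP reads was 22.9% in IP1 (22.6 to 23.3%) and 19.6% in IP2 (19.3 to 19.8%). Aspn encodes asporin, named for its run of aspartates, which lacks the chain of its relatives and competes with decorin for collagen. Aspn (chromosome 13, 49544443 to 49567565, NCBI Gene 66695) was at 20.4 CPM in IP1 against 25.9 CPM in IP2, a mean of 23.1 ± 3.88 CPM (SD, n = 2). All 3 class I genes were thus well above 10 CPM and higher in IP2.

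The class II genes ranged from the second most read SLRP to one without any read. Prelp encodes a proline- and arginine-rich protein that links basement membrane heparan sulfate to collagen (chromosome 1, 133910304 to 133930102, NCBI Gene 116847). Prelp was at 219 CPM in IP1 (215 to 222) against 328 CPM in IP2 (324 to 332), from 14269 and 23860 counts. Its share of the SLRP reads was 24.4% in IP1 (24.0 to 24.7%) and 27.1% in IP2 (26.9 to 27.4%), so it ranked just ahead of Dcn in IP1 and clearly ahead in IP2. Fmod, the fibromodulin gene on the same chromosome (134037254 to 134048280, NCBI Gene 14264), was at 59.5 CPM in IP1 against 91.0 CPM in IP2. Fibromodulin and lumican bind the same region of collagen. Lum, the lumican gene (chromosome 10, 97565501 to 97572703, NCBI Gene 17022), was at 49.3 CPM in IP1 (47.6 to 51.0) against 64.6 CPM in IP2 (62.8 to 66.5).

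Omd encodes osteomodulin, a keratan sulfate proteoglycan of bone and teeth (chromosome 13, 49582462 to 49592612, NCBI Gene 27047). Omd had 111 counts in IP1 and 140 in IP2, which is 1.70 CPM (1.40 to 2.05) and 1.92 CPM (1.62 to 2.27). Kera encodes keratocan, a proteoglycan of the cornea (chromosome 10, 97606962 to 97613688, NCBI Gene 16545). Kera had 0 counts in both libraries, which allows up to 0.046 CPM in IP1 against 0.041 CPM in IP2 at 3 counts. The two-sided exact intervals end at 0.057 and 0.051 CPM.

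Of class III, Ogn encodes osteoglycin (mimecan), a matrix protein of connective tissue and vessel walls. Ogn (chromosome 13, 49608015 to 49624501, NCBI Gene 18295) was at 24.4 CPM in IP1 (23.2 to 25.6) against 27.2 CPM in IP2 (26.0 to 28.4), a mean of 25.8 ± 1.99 CPM (SD, n = 2). Epyc encodes epiphycan, a proteoglycan of growth cartilage (chromosome 10, 97644068 to 97681908, NCBI Gene 13516). Epyc had 7 counts in IP1 and 5 in IP2, or 0.11 CPM (0.043 to 0.22) and 0.069 CPM (0.022 to 0.16). Its intervals overlap and do not reach 1 CPM in either library.

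Of the 10 genes, 9 lie in 3 chromosomal clusters of the family, and within each cluster counted genes stood beside genes with few or no reads. On chromosome 10, Dcn, Lum, Kera and Epyc follow one another within 202 kb. Dcn and Lum were above 49 CPM in both libraries, while Kera, 34.3 kb beyond Lum, had no count and Epyc, 30.4 kb further on, had 12 counts in all. Ccer1, the next coding gene, had no count either. The span of Epyc overlaps that of the noncoding gene Gm10754.

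On chromosome 13, Ecm2, Aspn, Omd and Ogn lie within 120 kb. Ecm2 encodes a matrix protein with leucine-rich repeats related to the class I SLRPs and is not among the 10 genes. It was at 113 CPM in IP1 against 178 CPM in IP2. Omd, 14.9 kb beyond Aspn and 15.4 kb before Ogn, was below 2 CPM in both libraries, while its neighbours on either side were above 20 CPM. All 4 genes lie inside the span of Cenpp, a centromere protein gene, at 4.92 CPM in IP1 against 4.39 CPM in IP2. Reads matching both Cenpp and one of these genes were not assigned, and how many there were is unknown. The flanking genes Ippk (25.2 and 20.0 CPM) and Nol8 (143 and 137 CPM), which serve inositol phosphate and ribosome synthesis, were lower in IP2.

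On chromosome 1, Optc, Prelp and Fmod lie within 151 kb. Optc encodes opticin, a class III SLRP of the eye's vitreous, and ends 0.6 kb from Prelp. Optc had 100 counts in IP1 and 59 in IP2 (1.53 and 0.81 CPM), the opposite direction to Prelp and Fmod. Btg2, an antiproliferative early response gene beyond Fmod, was at 45.9 CPM in IP1 against 18.4 CPM in IP2, also opposite to Fmod, and Atp2b4, a calcium pump gene before Optc, was at 126 and 140 CPM.

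**Figure D2:**
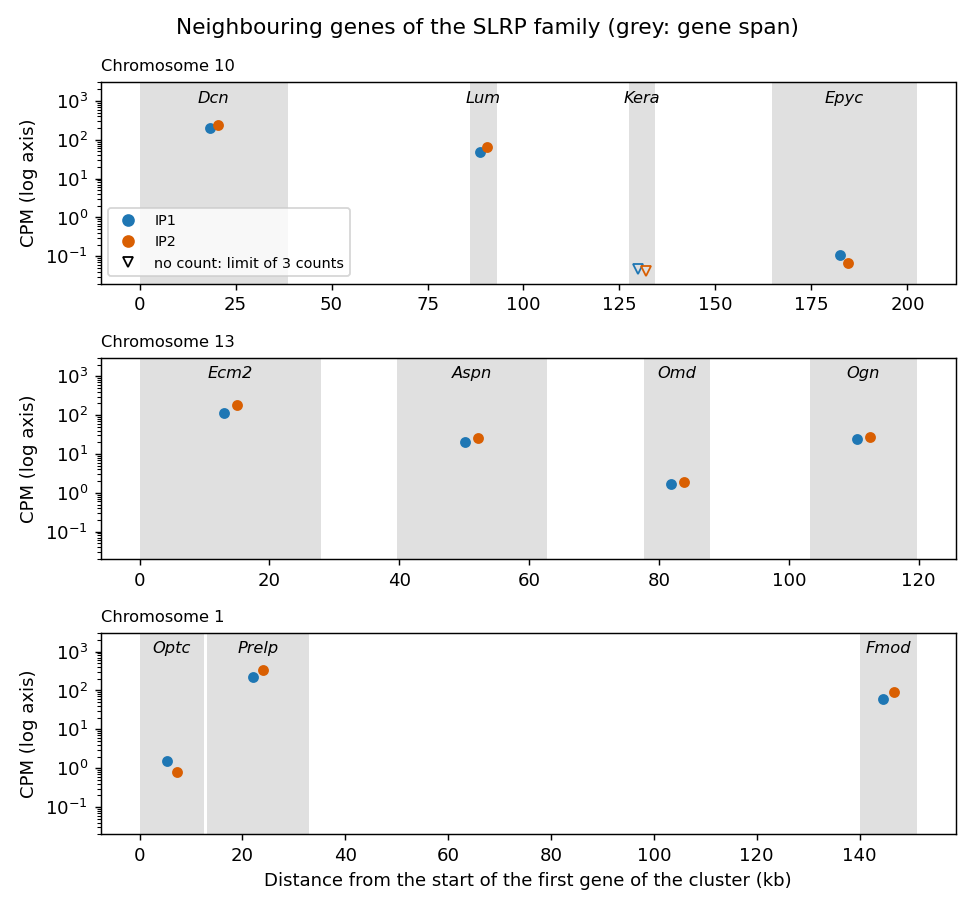
CPM (log axis) of SLRP family genes in IP1 and IP2 against distance in kb from the start of the first gene of each cluster; grey bands are gene spans. Dcn and Lum lie above 49 CPM beside Kera (open triangles, no count) and Epyc on chromosome 10, Omd lies below 2 CPM between Aspn and Ogn on chromosome 13, and Optc lies far below Prelp and Fmod on chromosome 1.

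All 8 genes at or above 1 CPM were higher in IP2, against 46.0% of the 13446 genes at that level in both libraries. For 7 of the 8 the interval of the ratio lay wholly above 1, against 36.1%. With 1 library on each side the difference has no replicate check, and it compares these libraries only. The ratio of IP2 over IP1 was 1.53 for Fmod (1.47 to 1.59), 1.499 for Prelp (1.47 to 1.53), 1.36 for Bgn (1.34 to 1.39), 1.31 for Lum (1.25 to 1.37) and 1.27 for Aspn (1.18 to 1.36). It was lower for Dcn at 1.15 (1.12 to 1.17), for Ogn at 1.12 (1.04 to 1.19) and for Omd at 1.13 (0.88 to 1.46), whose interval includes 1. Epyc had a ratio of 0.64 with an interval of 0.16 to 2.34, and Kera has none.

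None of the 9 SLRP genes with at least 10 counts differed by 2-fold or more, against 18.7% of the 17306 genes tested and 4.95% of those at 1 CPM in both. Of the 9207 genes at 10 CPM in both libraries, 8.1% differed in either direction by as much as Fmod, 9.16% by as much as Prelp and 51.5% by as much as Dcn. The median log2 ratio of the 8 genes was 0.37, beside -0.04 over all genes at 1 CPM. The interval of Dcn lay wholly below those of Bgn, Prelp, Fmod, Lum and Aspn, and those of Prelp and Fmod lay wholly above that of Bgn. These intervals hold counting error alone, so they do not show that the genes would differ in this way between other samples.

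Markers of several cell types moved in the same direction. Of 13 fibroblast markers at 1 CPM in both libraries, 11 were higher in IP2 (median log2 ratio 0.31). Of all genes at that level, 46.0% were. The fibroblast markers highest in level were Apod (1712 and 2446 CPM), Igf2 (831 and 1133 CPM) and Aldh1a2 (586 and 551 CPM). The 2 lower in IP2 were Aldh1a2 and Crabp2 (14.4 and 11.9 CPM). No fibroblast marker was at 0, but Slc47a1, below 1 CPM, had only 21 counts in IP1 and 3 in IP2. Of 8 astrocyte markers 7 were higher in IP2 (0.82, summed level 1806 and 2849 CPM), of 8 oligodendrocyte precursor markers 6 (0.46, 2482 and 3087 CPM) and of 12 pericyte and pan-mural markers 8 (0.57). Arterial smooth muscle markers were more even, with 6 of 10 higher in IP2 (0.01, summed level 2215 and 1915 CPM), and of 8 neuronal markers 4 were. Of the scarcer types at 1 CPM, 5 of 6 microglial markers were higher in IP2 (summed level of all 8 markers 31.4 and 35.6 CPM), 3 of 5 endothelial markers and 3 of 4 choroid plexus and ependymal markers (36.9 and 45.1 CPM, with Kcne2 at 0). Of 8 oligodendrocyte markers 5 were (2420 and 2597 CPM). The part of these cell types in the SLRP difference was not tested.

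**Figure D3:**
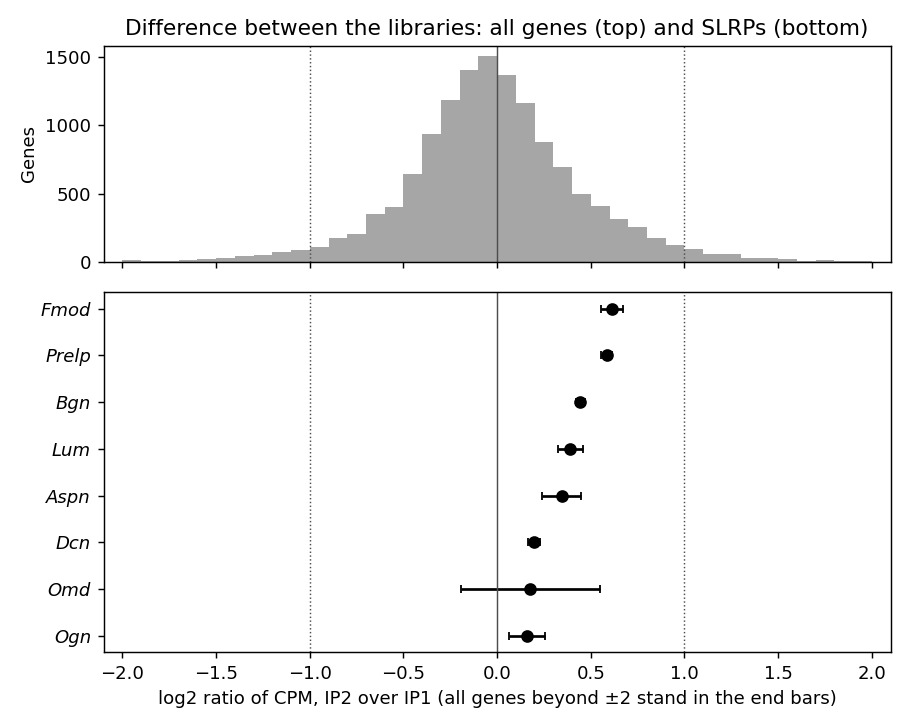
The upper panel counts genes at 1 CPM or more in both libraries by log2 ratio of IP2 over IP1, and the lower panel gives the 8 SLRP genes at that level with exact 95% counting intervals; dotted lines mark 2-fold. All 8 points lie right of 0, between 0.16 for Ogn and 0.61 for Fmod, and none reaches a dotted line.

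Of 7 further SLRP family genes, only Ecm2 reached 10 CPM in both libraries, against 28.3% of all genes listed. Podn, the podocan gene, was at 7.02 CPM in IP1 against 8.44 CPM in IP2, Tsku, the gene of the secreted signalling modulator tsukushi, at 1.09 and 2.58 CPM, and Nyx, the nyctalopin gene of the retina, at 0.63 and 0.55 CPM. Podnl1 had no count, but its span overlaps that of Cc2d1a. Ecm2 had a ratio of 1.57 (1.53 to 1.62) and was thus near Fmod and Prelp.

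Genes that build the sugar chains were present for both chain types. Of 22 chondroitin and dermatan sulfate genes, 10 reached 10 CPM in both libraries, against 28.3% of all genes listed. Of 20 at 1 CPM, 16 were higher in IP2 (median log2 ratio 0.24), 1 of them by 2-fold. Of all 13446 genes at that level, 46.0% were higher in IP2, and 317 were higher by 2-fold. These shares over all genes also stand beside the lists below. The sulfotransferase genes Chst11 (103 and 121 CPM), Chst15 (35.0 and 59.0 CPM) and Ust (31.9 and 61.8 CPM) and the chain polymerase gene Chsy1 (50.0 and 67.2 CPM) had the highest means of the list. Chst13 had no count, and B4galt7, below 1 CPM in IP2 only, was at 2.50 CPM in IP1 against 0.98 CPM in IP2. Dse, which encodes the epimerase that turns chondroitin into dermatan sulfate, was at 14.7 and 15.8 CPM, and Xylt1, which starts the chain on the core protein, at 23.0 and 34.8 CPM. Of 10 keratan sulfate genes, 5 reached 10 CPM, and all 8 at 1 CPM were higher in IP2 (0.46), with Fut8 nearly even at 37.1 and 37.4 CPM. Chst2, a sulfotransferase gene, led that list with 510 and 768 CPM, followed by B3gnt2 (64.7 and 104 CPM), Chst1 (49.9 and 58.4 CPM) and Fut8. Chst4 had no count. Many of these enzymes also serve other proteoglycans and glycoproteins.

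Among the binding partners, 4 of 13 fibrillar and fibril-associated collagen genes reached 10 CPM in both libraries. Col1a2 was at 47.6 CPM in IP1 against 90.3 CPM in IP2, Col1a1 at 19.5 and 34.7 CPM, Col3a1 at 14.0 and 16.4 CPM and Col12a1 at 13.4 and 16.3 CPM. All 10 collagen genes at 1 CPM were higher in IP2 (median log2 ratio 0.75), 3 of them by 2-fold, against 317 of all 13446 genes. The cartilage collagen gene Col2a1 had no count. Col1a1, Col1a2 and Col3a1 also stand among the fibroblast markers. Growth factors that SLRPs bind were split, with 5 of 10 genes higher in IP2 (-0.01). Bmp4 (91.0 and 107 CPM), Ctgf (40.2 and 44.2 CPM), Vegfa (36.6 and 36.8 CPM) and Tgfb3 (27.7 and 27.2 CPM) had the highest means.

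Of 10 receptor genes, 4 reached 10 CPM in both libraries, namely Lrp1 (99.1 and 233 CPM), Igf1r (73.3 and 97.5 CPM), Erbb4 (33.4 and 43.8 CPM) and Egfr (14.1 and 15.8 CPM). Of 7 at 1 CPM, 6 were higher in IP2 (median log2 ratio 0.39). Of 12 genes of proteases that cleave SLRPs and of a cofactor, 4 reached 10 CPM, namely Adamts5 (19.4 and 24.3 CPM), Pcolce (16.9 and 24.5 CPM), an enhancer of procollagen processing, Htra1 (12.02 and 29.1 CPM) and Mmp14 (12.2 and 16.3 CPM). All 7 at 1 CPM were higher in IP2 (1.15), 4 of them by 2-fold, against 317 of all 13446 genes at that level. The 4 included Bmp1 (2.09 and 5.58 CPM), whose product trims probiglycan. Mmp3 and Mmp13 had no count.

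**Figure D4:**
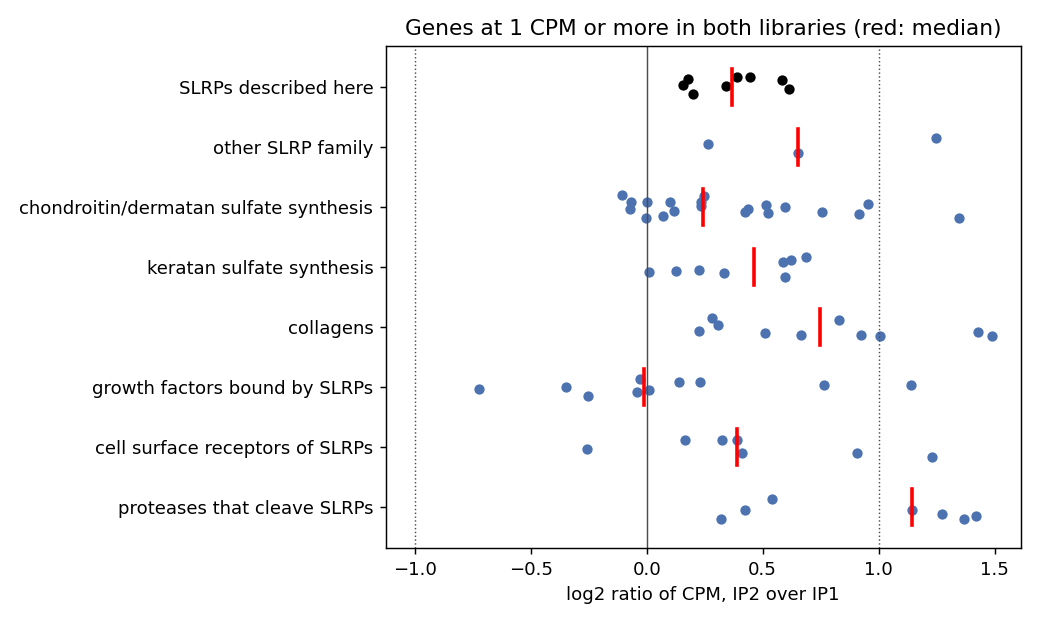
Log2 ratio of IP2 over IP1 for each gene at 1 CPM or more in both libraries, by list; red bars are medians and dotted lines mark 2-fold. The 8 SLRP genes have a median of 0.37, the collagens 0.75, the proteases 1.15 and the growth factors -0.01.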

How the data were processed

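STAR 2.0.0e alignment to mm10 preceded counting with HTSeq, per the submitters' processing notes. Which annotation and strand setting were used is not given in the sources used here. The authors deposited 1 raw count per gene symbol and library. Summary lines and a row named unknown (1 and 0 reads) were left out of library sizes. Genes took 58.1% (IP1) and 57.7% (IP2) of the reads listed. Reads with several alignments (31.2% and 31.5%) were not assigned.

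Counts were divided by the total of all gene counts. Level intervals are exact Poisson, shares exact binomial (Clopper-Pearson), and ratios follow from the exact binomial interval of the reads. Ratios were computed for all 17306 genes with 10 or more counts in total. No edgeR quasi-likelihood test can be fitted to 2 libraries of 1 group, so no p-value is given. An order per transcript length was planned but not made, because the lengths at hand are gene spans with introns. TMM sizes came from edgeR 4.0.16 and alternative size factors from DESeq2 1.42.0 (R 4.3.3, Python 3.11.15, scipy 1.17.1). Coordinates and promoters are RefSeq's for GRCm38.p6, the assembly that mm10 names.

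The genes and lists were chosen with earlier results of these data known, and the motifs after levels were seen. Named from each list were up to 4 genes with the highest mean at 10 CPM in both libraries and up to 4 without a count, by the rule set for the lists. The rule also took the 3 highest genes of each cell marker list. Given here are those of fibroblasts and the highest pericyte, endothelial and neuronal marker. Dse, Xylt1, B4galt7, Bmp1, Cldn5, Tek, Foxj1, Crabp2, Slc47a1, Podn, Tsku, Nyx, Kcne2, Chad, Tlr2 and Cd14 were added after their values were seen.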

Additional observations from a re-analysis of the deposited data

How the results depend on the processing

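With TMM sizes, DESeq2 size factors or a total without Rn45s, the ribosomal RNA precursor, 8 of the 10 genes were at 1 CPM in both libraries, 7 ratio intervals lay above 1 and no gene reached 2-fold. The count of intervals under other scalings was added after the data were seen. The shares of all genes at 1 CPM, at 2-fold and with such an interval (36.1%) were computed with total gene counts only. TMM and DESeq2 moved all log2 ratios by 0.05 and 0.06, and the share of all genes at 1 CPM that were higher in IP2 from 46.0% to 52.1% and 52.4%. Each scaling shifts every ratio by 1 constant, so it leaves the order of the ratios as it is. At a fold of 1.5 in either direction, 2 genes passed, Fmod and Epyc, the latter on 12 counts. The share of all genes passing that fold was not computed. Of the 9207 genes at 10 CPM in both libraries, 9.16% differed by as much as the 1.499 of Prelp. Prelp, at 1.499, also passed with TMM and DESeq2 (log2 ratio 0.64 in both) and without Rn45s (0.59). Summed levels were 1208 CPM without IP1 and 899 CPM without IP2, against a mean of 1053 ± 219 CPM (SD, n = 2). No paired analysis was possible because the 2 libraries form 1 group. The alternatives for the order per length were not run, as no transcript length was at hand. Depth limits statements on Epyc, Kera and Omd.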

Other observations

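Chad, the gene of the cartilage SLRP chondroadherin, had 27 counts in IP1 and 0 in IP2, and Tlr2, the gene of a biglycan receptor, had 30 and 0. Both values were singled out after they were seen. The span of Chad overlaps that of Acsf2, so unassigned reads may be missing from its counts. Cd14, the gene of a co-receptor of biglycan signalling, went the other way with 43 counts in IP1 and 205 in IP2.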
